A study of Mus musculus with 12 samples.

Results

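The genes described here encode the proteins of both ribosomes of the cell, the cytosolic ribosome (Rpl and Rps names) and the mitochondrial ribosome (Mrpl and Mrps names). Probes outside the array controls were taken when their gene name was Rpl or Rps followed by a number and at most a single further letter, or Mrpl or Mrps followed by a number, and names of pseudogenes ending in -ps were left out. This gave 278 of the 55681 probes on the array, 177 for 77 cytosolic genes and 101 for 73 mitochondrial genes, or 150 genes in all. The rule uses names alone, so the values below did not choose the members. Probes entered the test when all 3 arrays of some group read them well above background, and each gene was represented by its brightest probe on average. By this, 74 cytosolic and 72 mitochondrial members were tested among 18112 genes, and each of these 146 was well above background on all 12 arrays. The 4 members without a test were Rpl3l, Rpl10l and Rpl39l, copies of cytosolic genes known from muscle or testis, and Mrpl35. Their probes were well above background on 0 to 2 of the 12 arrays.

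The 12 Agilent arrays, each with a single dye, carried liver RNA of male F2 mice of the C3H/HeN strain, at an age of about 74 weeks. There were 4 groups of 3 arrays. From the arsenite line came tumours, non-tumour liver and normal liver, and from the control line came non-tumour liver. In the arsenite line the F0 dams drank tap water with 85 ppm sodium arsenite on days 8 to 18 of gestation, F1 animals were mated at 10 weeks, and neither F1 nor F2 animals were given arsenite, while F0 dams of the control line drank tap water alone. Tumours and normal liver of the control line were not analysed here, so tumours could be compared only within the arsenite line. The labels do not say how non-tumour and normal liver differ, whether tumours were 1 per mouse, or whether equal sample numbers mark 1 mouse. In these bulk samples, fewer cells of a type and less RNA per cell cannot be told apart.

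Cytosolic ribosomal proteins are made in the cytosol, assembled with ribosomal RNA in the nucleolus and exported as small and large subunits that translate nearly all cellular messages. Their messages are abundant in liver, and many begin with a pyrimidine tract through which mTOR signalling sets their translation. Mitochondrial ribosomal proteins are encoded in the nucleus too, are imported into mitochondria and form a separate ribosome. That ribosome translates the few messages of mitochondrial DNA, all of which encode subunits of the oxidative phosphorylation complexes. Hepatocytes are rich in mitochondria, and synthesis of both ribosomes is known to respond to growth signals.

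What the array reads is a probe of 60 bases per gene, and the probes of 5 called members are shown, both families and both directions among the cytosolic genes, because the values below belong to these sequences. All letters are from the deposited array files, 5′ to 3′, with positions on mm9 as the array annotation gives them. The Mrpl14 probe lies at chr17:45835317-45835376 on the plus strand, the Rps6 probe at chr4:86500748-86500807 on the minus strand and the Rps2 probe at chr17:24857583-24857642 on the plus strand. The Mrpl47 probe spans chr3:32629104-32630111 on the minus strand, so its 60 bases come from separate stretches of the genome. The Rps29 probe was placed at chr2:172335021-172335079 on the minus strand, whereas the reference gene table has Rps29 on chromosome 12.
Mrpl14 probe: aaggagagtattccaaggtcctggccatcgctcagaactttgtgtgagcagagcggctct
Mrpl47 probe: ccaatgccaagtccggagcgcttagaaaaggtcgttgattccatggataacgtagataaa
Rps6 probe: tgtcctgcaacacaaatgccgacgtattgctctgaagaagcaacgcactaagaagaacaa
Rps2 probe: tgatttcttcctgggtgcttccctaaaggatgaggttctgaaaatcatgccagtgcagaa
Rps29 probe: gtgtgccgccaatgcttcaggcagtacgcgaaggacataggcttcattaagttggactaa
In all, 11 of the 277 member probes with a position lay on another chromosome than their gene, among them probes of Rps29, Rps27, Rpl13, Rps4x and Rpl36. Ribosomal protein genes have many near-identical processed copies in the genome, so signal from a gene and from its copies cannot be told apart with such probes.

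Values are log2 of the processed signal minus the 75th percentile of the array, and differences are log2 differences of group means with the standard error (SE) of a limma fit of all 12 arrays. A gene is called when its adjusted p (limma, 2-sided moderated test, Benjamini-Hochberg over all 18112 genes) is under 0.05. Per array, 21870 to 25432 probes and 262 to 267 of the 278 member probes were well above background, the 75th percentile of the signal was 153 to 245 units, and no member probe was saturated. Normal liver lay on slide 1, both non-tumour groups on slide 2 and tumours on slide 3. Slide and group therefore cannot be told apart in any comparison of tumours or of normal liver, and arsenite against control non-tumour liver is the single comparison within a slide.

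In tumours against non-tumour liver of the arsenite line, most mitochondrial ribosomal protein genes were lower, while few cytosolic ones differed. Of the 72 mitochondrial members, 51 fell and 3 rose, and 18 did not pass the test. Of the 74 cytosolic members, 5 rose and 2 fell, and 67 did not pass. Among all genes tested, 17.1% rose and 29.9% fell, against 70.8% of mitochondrial members that fell and 2.70% of cytosolic members that fell. The median difference was -0.41 over mitochondrial members and 0.06 over cytosolic members, against -0.13 over all genes tested. Genes outside the mitochondrial family whose mean signal lay in the middle quartiles of the mitochondrial members numbered 2623, and 39.7% of them fell, with a median of -0.20. With the sample number as a block in a fit of the 6 arrays, 39 mitochondrial members fell and 1 rose, and 3 cytosolic members rose and 2 fell.

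Falls were found in both subunits of the mitochondrial ribosome. Of the 46 tested Mrpl genes (large subunit), 32 fell and 2 rose, with a median difference of -0.42. Of the 26 tested Mrps genes (small subunit), 19 fell and 1 rose, with a median of -0.39. Subunits here follow the gene names alone, Mrps36 included, and were not checked against the composition of the ribosome. Among cytosolic genes the 43 large-subunit members gave 1 rise and 0 falls, with a median of 0.10, and the 31 small-subunit members gave 4 rises and 2 falls, with a median of 0.05. An unadjusted limma p under 0.05 was found for 8 of the 43 large-subunit and 8 of the 31 small-subunit cytosolic members. Among all genes tested it was found for 9759 of 18112, a larger share.

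**Figure D1:**
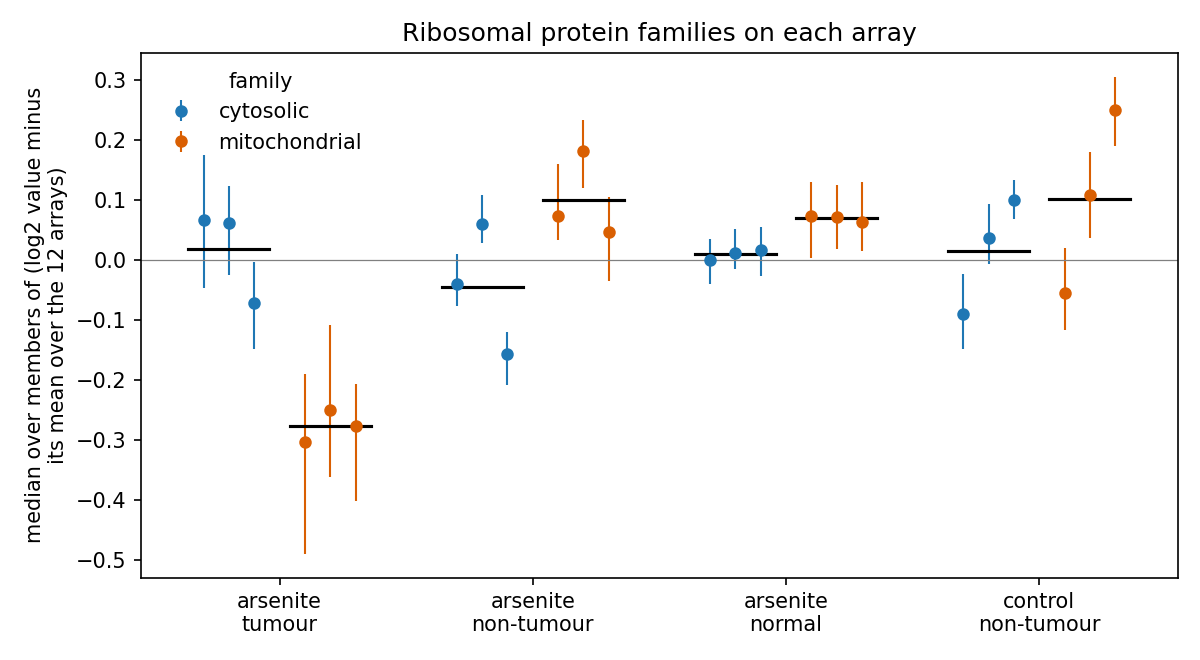
Median over the tested members of each family (cytosolic, blue; mitochondrial, orange) of the log2 value minus the gene's mean over the 12 arrays, for each array; bars span the middle quartiles of the members and black lines are group means of 3 arrays. The mitochondrial medians of the 3 tumours lie between -0.30 and -0.25, below those of all 9 other arrays, whose lowest is -0.06.

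On each array, the family medians of the centred values show the same order as the gene counts. The mitochondrial median was -0.30, -0.25 and -0.28 in the 3 tumours. It was 0.07, 0.18 and 0.05 in non-tumour liver and 0.07, 0.07 and 0.06 in normal liver of the arsenite line, and -0.06, 0.11 and 0.25 in non-tumour liver of the control line. The tumours thus stood below the other 9 arrays, and the control non-tumour arrays spread most among themselves. The cytosolic median was 0.07, 0.06 and -0.07 in tumours, against -0.04, 0.06 and -0.16 in non-tumour liver, -0.00, 0.01 and 0.02 in normal liver and -0.09, 0.04 and 0.10 in control non-tumour liver. These groups overlapped, and tumour 3 and non-tumour 3 of the arsenite line were each the lowest of their group. The cytosolic minus the mitochondrial median, which is free of the scaling of an array, averaged 0.30 ± 0.08 in tumours (SD, n = 3). It averaged -0.15 ± 0.05 in non-tumour and -0.06 ± 0.01 in normal liver of the arsenite line and -0.09 ± 0.06 in non-tumour liver of the control line (SD, n = 3 each). Its 3 tumour values, 0.37, 0.31 and 0.20, all lay above 0, and the 9 other values all lay below 0.

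**Figure D2:**
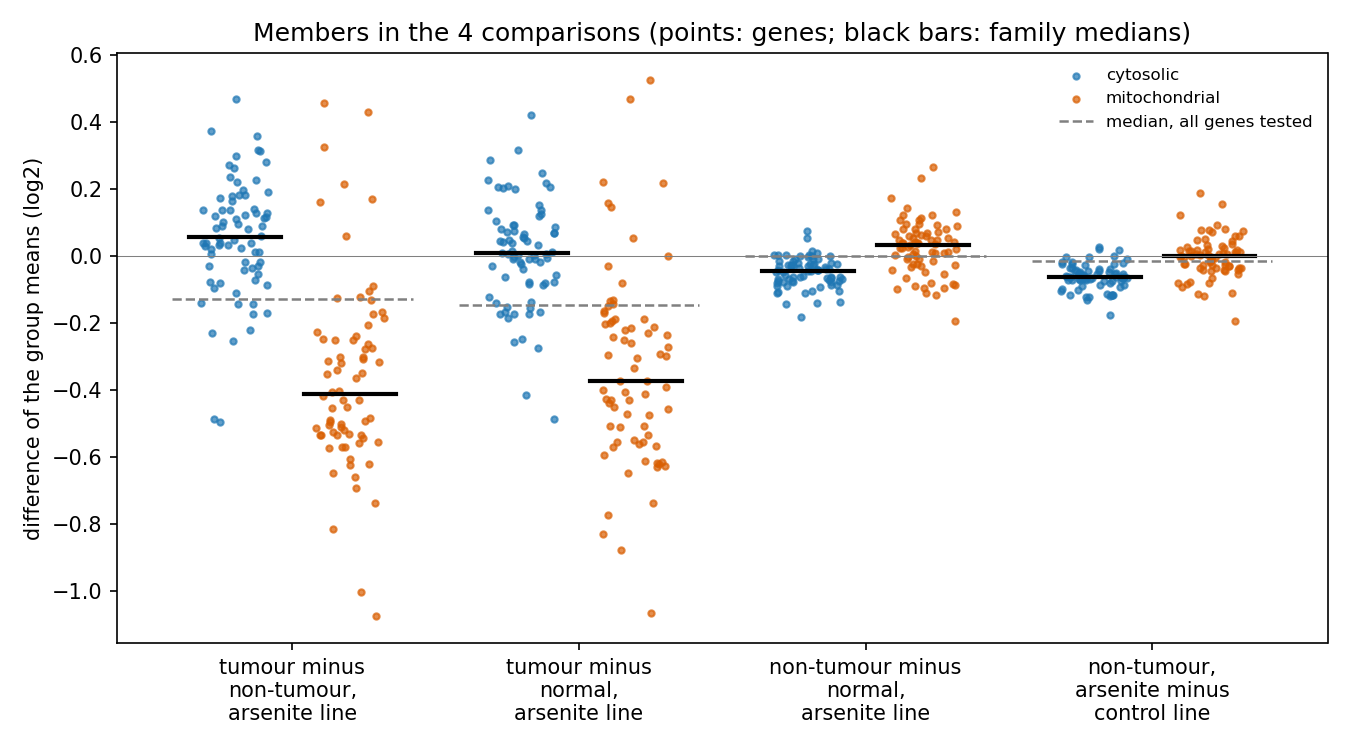
Difference of the group means (log2) of every tested member in the 4 comparisons (cytosolic, blue; mitochondrial, orange); black bars are family medians and dashed lines the median over all genes tested. In both tumour comparisons the mitochondrial median (-0.41 and -0.37) lies below that of all genes (-0.13 and -0.14) and the cytosolic median (0.06 and 0.01) above it; the other 2 comparisons stay close to 0.

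The largest falls, by the probe that represents each gene, were in genes of the large mitochondrial subunit. Mrpl14, the counterpart of bacterial ribosomal protein L14, had values of 5.94, 5.94 and 6.02 in tumours, against 7.09, 7.09 and 6.94 in non-tumour liver. All 3 tumours lay below all non-tumour arrays, and the difference of -1.08 ± 0.09 (SE, n = 3 each), a 2.11-fold lower level, had an adjusted p of 7.6e-06. In normal liver and in control non-tumour liver the gene read 7.01, 7.07 and 7.01, and 6.91, 7.09 and 7.17, all above the 3 tumours. Mrpl15, the counterpart of bacterial L15, read 3.56, 3.71 and 3.68 in tumours, against 4.64, 4.75 and 4.56 in non-tumour liver. It was 2.0-fold lower in tumours (adjusted p = 3.26e-05), and its groups did not overlap. Mrpl47, the counterpart of bacterial L29, read 2.27, 2.21 and 2.33 in tumours, against 3.08, 3.17 and 3.01 in non-tumour liver, with a difference of -0.81 ± 0.09 (adjusted p = 5.87e-05). Tumours and the other 9 arrays were apart for this gene too. The differences of its 4 probes ran from -0.81 to -0.43. Mrpl4, the counterpart of bacterial L4, whose tip lines the exit tunnel of the new peptide, read 5.21, 5.41 and 5.45 in tumours, against 6.21, 6.18 and 5.89 in non-tumour liver. Its difference was -0.74 ± 0.11 (adjusted p = 0.000409).

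In the small mitochondrial subunit, Mrps10, the counterpart of bacterial S10, and Mrps24, that of bacterial S3, fell most by the probe that represents each gene. The other probes of Mrps2 and Mrps7 had larger falls, with differences of -0.97 and -0.81. Mrps10 read 3.35, 3.69 and 3.63 in tumours, against 4.28, 4.26 and 4.20 in non-tumour liver, a difference of -0.69 ± 0.12 (adjusted p = 0.000673). Mrps24 read 3.70, 3.74 and 3.70 in tumours, against 4.39, 4.45 and 4.27 in non-tumour liver, a difference of -0.66 ± 0.08 (adjusted p = 0.000126). Neither gene's groups overlapped. Mrps34, mutated in a human mitochondrial disease of infancy, fell by 0.61 ± 0.11 (adjusted p = 0.00127), with 5.11, 5.24 and 5.10 in tumours, against 5.82, 5.79 and 5.66 in non-tumour liver. Mrpl24, like these, fell, by 0.54 ± 0.08 (adjusted p = 0.000422).

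The other falls were smaller and graded. By the probe that represents each gene, only Mrpl14 and Mrpl15 of the 51 fell by at least 2-fold, and 10 of the 51 by at least 1.5-fold, namely Mrpl14, Mrpl15, Mrpl47, Mrpl4, Mrps10, Mrps24, Mrpl49, Mrps7, Mrps9 and Mrps34. The other probe of Mrps2 read 0.97 lower in tumours, which is more than 1.5-fold. Other probes gave smaller falls for Mrpl15 (-0.89, under 2-fold). The smallest probe differences of Mrpl47 and Mrpl49 were -0.43 and -0.48, both under 1.5-fold. Differences between -0.57 and -0.48 were found for Mrps2, Mrpl36, Mrpl39, Mrpl34, Mrps31, Mrpl24, Mrps35, Mrpl2, Mrpl55, Mrpl23, Mrps36, Mrpl30, Mrpl32, Mrpl3, Mrpl22, Mrpl44, Mrps16, Mrps5, Mrpl37, Mrpl18 and Mrps27, and those between -0.45 and -0.34 for Mrpl9, Mrpl40, Mrpl28, Mrps17, Mrpl16, Mrpl42, Mrps30, Mrpl21, Mrpl11 and Mrps23. The smallest differences that were called, -0.32 to -0.25, were those of Mrpl12, Mrpl27, Mrps33, Mrps14, Mrpl51, Mrps12, Mrpl13, Mrpl17, Mrps21 and Mrpl43. Mrpl12, the counterpart of the bacterial stalk protein and known to bind the mitochondrial RNA polymerase, read 5.26, 5.45 and 5.44 in tumours, against 5.70, 5.83 and 5.56 in non-tumour liver, with an adjusted p of 0.0479. Mrps12, the counterpart of the decoding protein S12, had an adjusted p of 0.0357. With the sample number as a block in the 6 arrays, 38 of the 51 falls passed and 13 did not, with adjusted p of 0.0503 to 0.103. The 13 were Mrpl12 (0.0938), Mrps12 (0.102), Mrpl13, Mrpl17, Mrpl21, Mrpl27, Mrpl43, Mrpl51, Mrps14, Mrps21, Mrps23, Mrps30 and Mrps33. Where a called lower member had several probes that could be used, which held for 17, every probe of the gene read lower in tumours.

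A few mitochondrial members went the other way. Mrps6, the counterpart of bacterial S6, read 2.51, 3.04 and 2.87 in tumours, against 2.44, 2.46 and 2.15 in non-tumour liver. It rose by 0.46 ± 0.15 (adjusted p = 0.0272), and tumour 1 lay just above the highest non-tumour array. With the sample number as a block its adjusted p was 0.0985. Mrpl50, a protein without a bacterial counterpart, rose by 0.43 ± 0.12 (adjusted p = 0.0128), with 3.72, 4.02 and 3.90 in tumours, against 3.46, 3.44 and 3.46 in non-tumour liver. Its 2 probes both read higher in tumours, by 0.19 and 0.43. Mrpl52 rose by 0.33 ± 0.10 (adjusted p = 0.024, and 0.0572 with the block), with 6.50, 6.59 and 6.34 in tumours, against 6.19, 6.19 and 6.06 in non-tumour liver. Without tumour 2 none of the 3 rises passed the test, and the adjusted p of Mrpl50 was then 0.0513. Of the 18 members that did not pass, 14 had a difference below 0, and Mrps15, Mrpl48, Mrpl20 and Mrpl54 one above 0. Mrpl41, which is also known as a partner of p53, read 4.46, 4.72 and 4.59 in tumours, against 4.72, 4.83 and 4.61 in non-tumour liver, and these groups overlapped (adjusted p = 0.32). Its 2 probes went opposite ways, by -0.13 and 0.36.

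**Figure D3:**
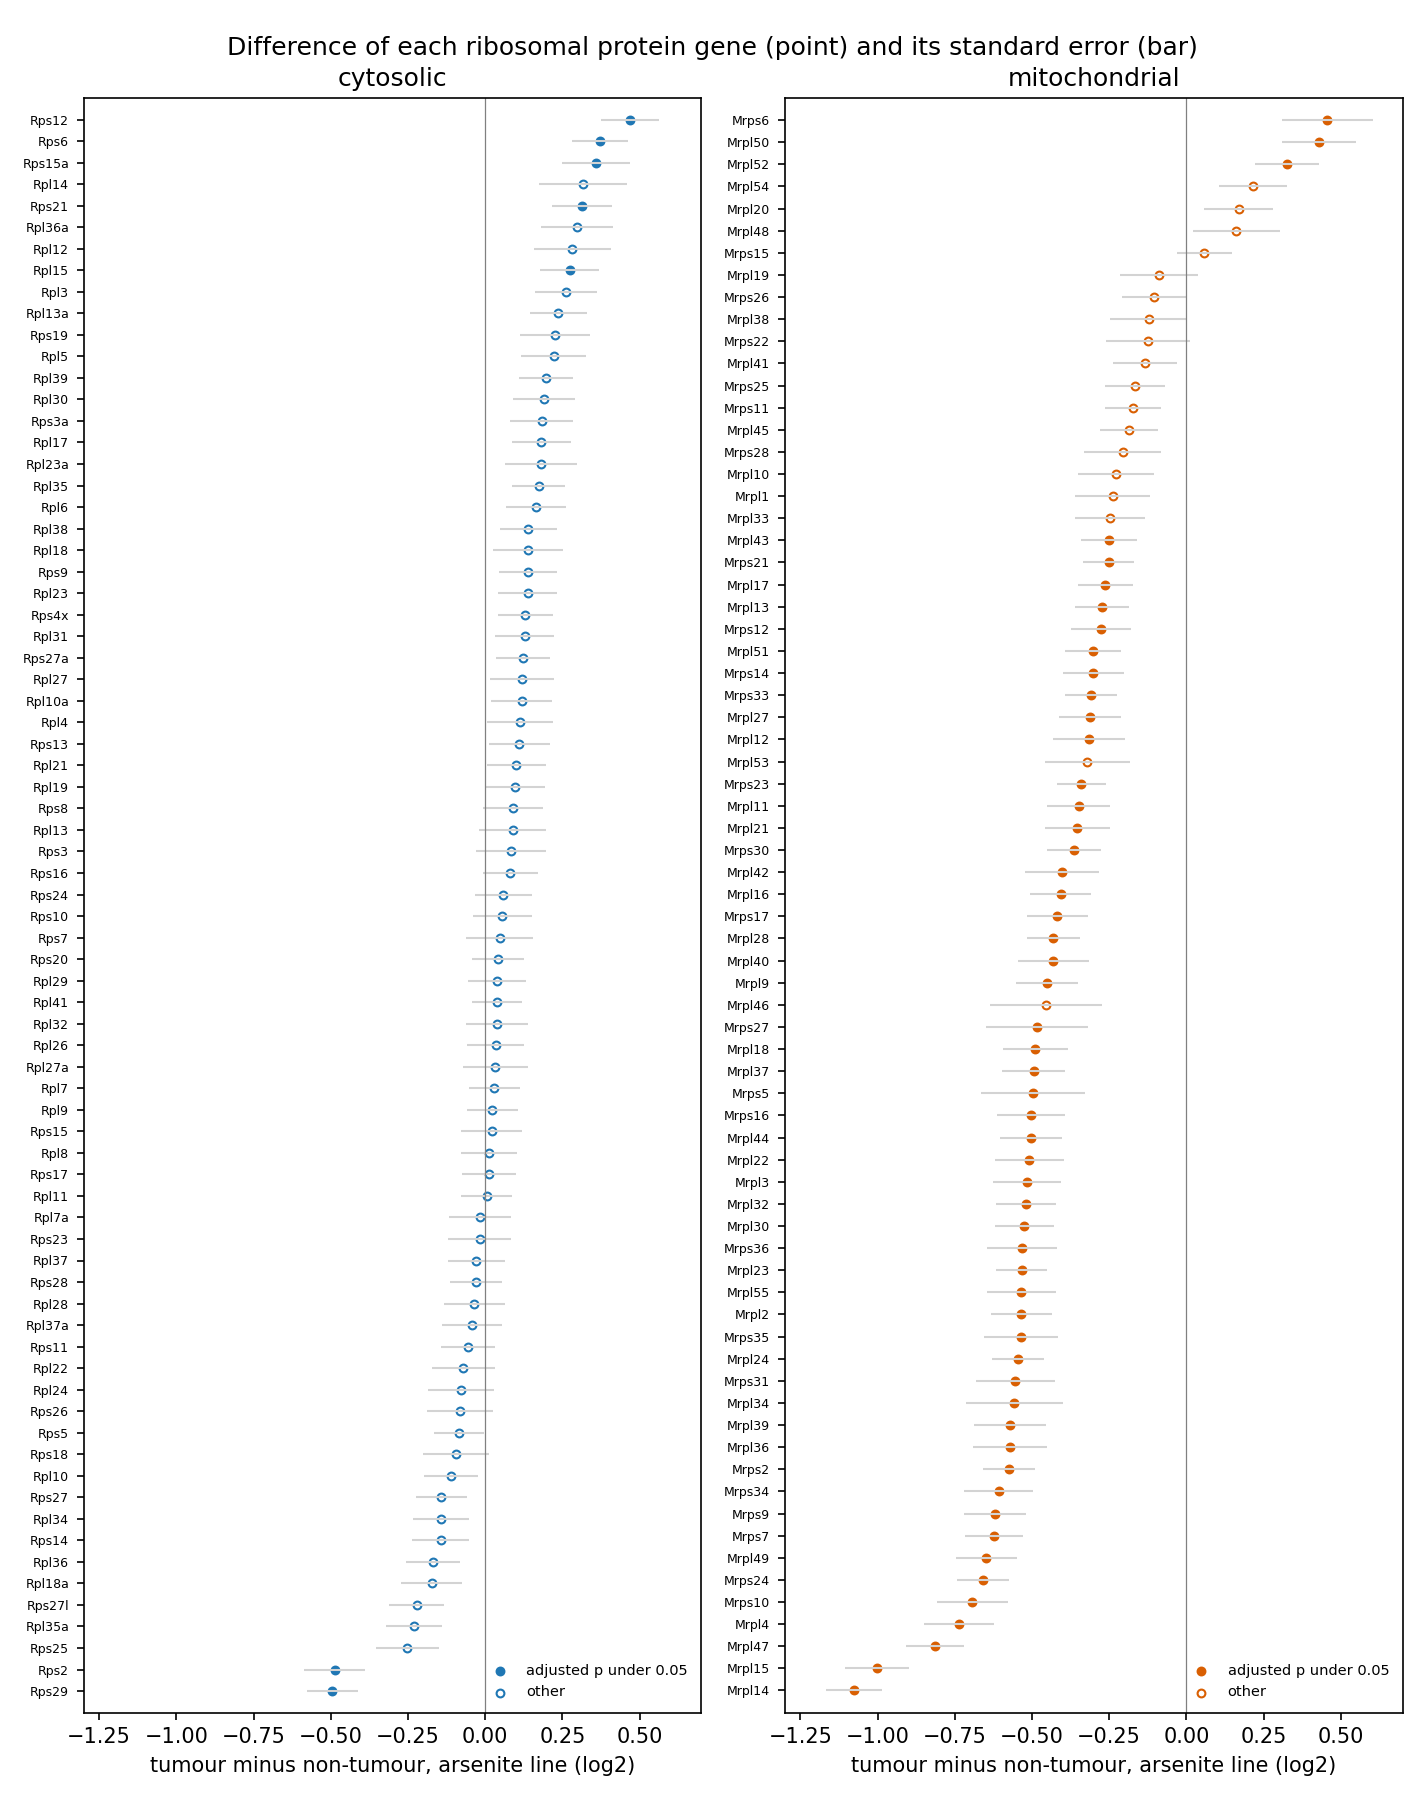
Difference of tumours minus non-tumour liver of the arsenite line (log2, points) with its standard error (bars) for the 74 cytosolic and 72 mitochondrial members tested, sorted from high to low; filled points have an adjusted p under 0.05. Cytosolic members run from 0.47 (Rps12) to -0.49 (Rps29), and mitochondrial members from 0.46 (Mrps6) to -1.08 (Mrpl14).

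Among cytosolic genes in the same comparison, those that passed the test were mostly of the small subunit. Rps12 rose most, with 8.79, 8.95 and 8.83 in tumours, against 8.41, 8.49 and 8.26 in non-tumour liver (difference 0.47 ± 0.09, adjusted p = 0.00209). Rps6, whose protein is a substrate of the S6 kinases, read 7.58, 7.60 and 7.41 in tumours, against 7.20, 7.23 and 7.04 in non-tumour liver. It rose by 0.37 ± 0.09 (adjusted p = 0.00669), and the groups of both genes were apart. Rps15a rose by 0.36 ± 0.11 (adjusted p = 0.0202), with 6.90, 6.97 and 6.72 in tumours, against 6.49, 6.69 and 6.34 in non-tumour liver. Rps21 rose by 0.31 ± 0.10 (adjusted p = 0.0224) and Rpl15, a protein of the large subunit, by 0.27 ± 0.10 (adjusted p = 0.0369). The calls of Rps21 and Rpl15 did not hold with the sample number as a block, where the adjusted p was 0.0632 and 0.101. The other probe of Rpl15 read 0.03 higher in tumours.

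Rps29 and Rps2 fell. Rps29, a small zinc-binding protein mutated in some human families with Diamond-Blackfan anaemia, read 8.54, 8.48 and 8.50 in tumours, against 9.01, 9.12 and 8.87 in non-tumour liver. Its difference was -0.49 ± 0.08 (adjusted p = 0.000689), a 1.41-fold lower level, and each of its 3 probes, all placed on chromosome 2, read lower in tumours. Rps2, which lies near the entry of the messenger RNA channel, read 6.95, 6.85 and 6.82 in tumours, against 7.39, 7.50 and 7.19 in non-tumour liver, with a difference of -0.49 ± 0.10 (adjusted p = 0.00226). Rps29 read between 8.97 and 9.02 in normal liver of the arsenite line and between 9.02 and 9.11 in control non-tumour liver. Rps2 read between 7.24 and 7.32 in normal liver and between 7.29 and 7.48 in control non-tumour liver. Tumours were thus below all 9 other arrays for both genes. By the probe that represents each gene, no cytosolic member that was called differed by 1.5-fold or more. The other probe of Rps12 read 0.67 higher in tumours, which is more than 1.5-fold.

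**Figure D4:**
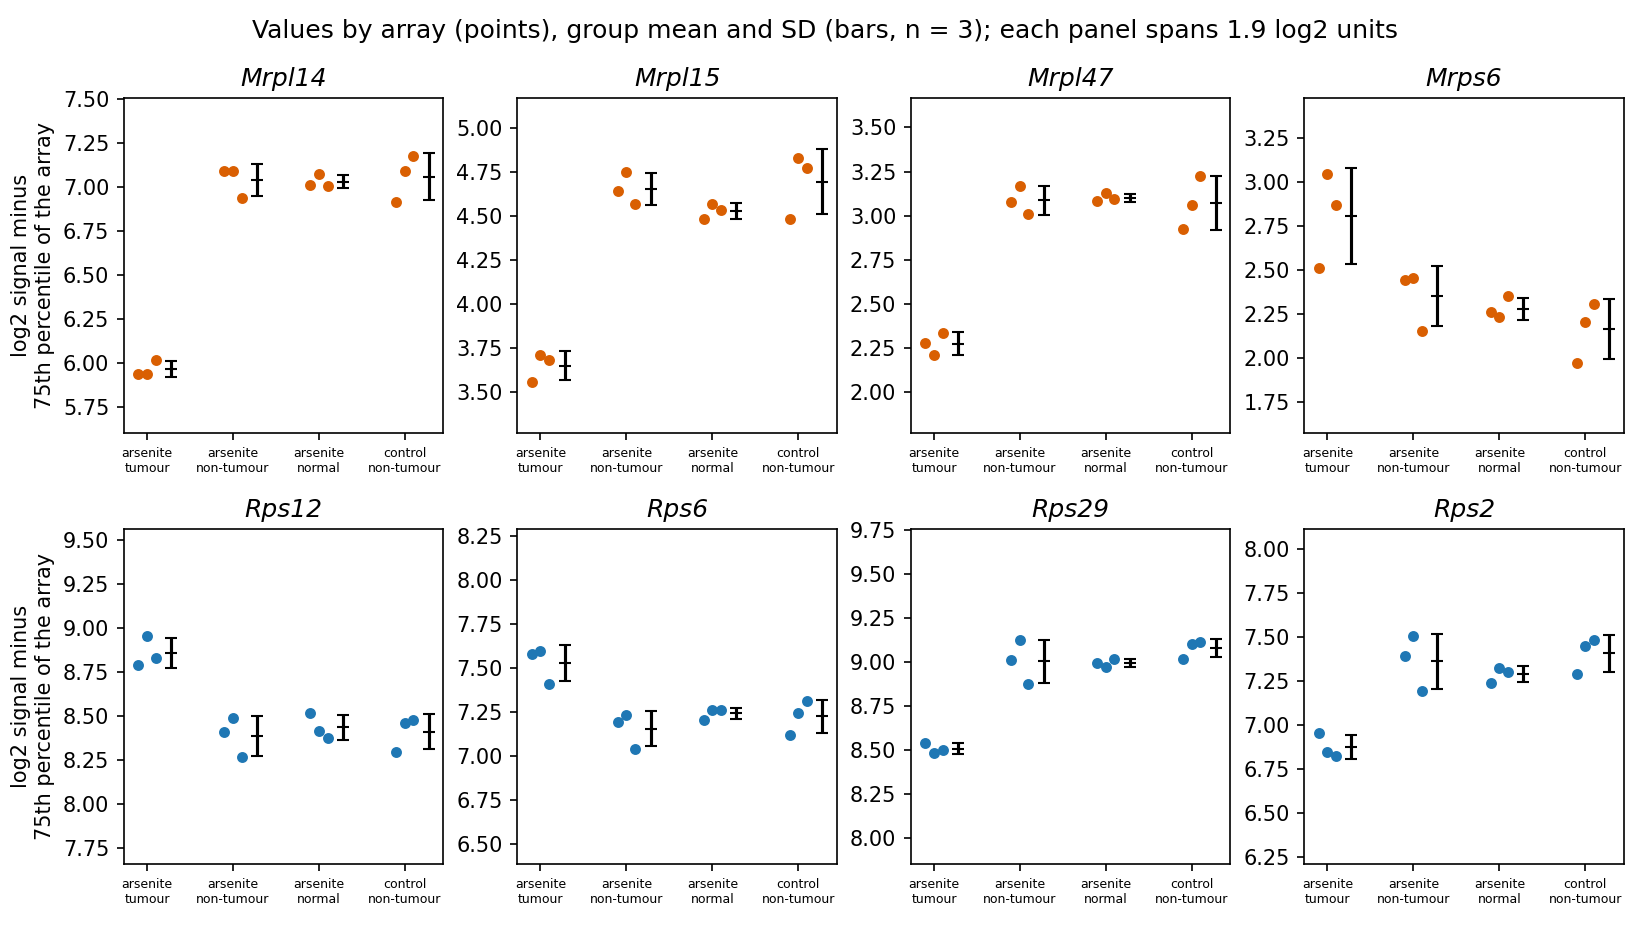
Log2 signal minus the 75th percentile of the array for 4 mitochondrial (orange) and 4 cytosolic members (blue) on each array (points), with the group mean and SD (bars, n = 3). Mrpl14, Mrpl15 and Mrpl47 are lower and Rps12 and Rps6 higher in tumours than on all other arrays, Rps29 and Rps2 are lower, and the SD of Mrps6 is widest in tumours.

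Several other members with known roles did not pass the test in this comparison. Rps27l, a copy of Rps27 that p53 is known to induce, read 7.25, 7.31 and 7.15 in tumours, against 7.47, 7.57 and 7.33 in non-tumour liver (difference -0.22 ± 0.09, adjusted p = 0.0634), and Rps27 had a difference of -0.14 ± 0.08 (adjusted p = 0.177). Rpl5 and Rpl11, which bind and restrain Mdm2 when ribosome assembly fails, had differences of 0.22 ± 0.11 and 0.00 ± 0.08 (adjusted p = 0.108 and 0.967). Rps19 and Rps14, lost or mutated in human anaemias, had differences of 0.23 ± 0.11 and -0.14 ± 0.09 (adjusted p = 0.126 and 0.222). Rpl3, which shapes the peptidyl transferase centre, was just outside the threshold at 0.26 ± 0.10 (adjusted p = 0.0523). Rpl10, Rpl39 and Rps4x, whose copies are known from other tissues, had differences of -0.11, 0.20 and 0.13 (adjusted p = 0.32, 0.0847 and 0.261).

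The scaling of the arrays decided how many cytosolic genes were called and could turn the sign of their median. Scaled to the 75th percentile of the 19900 probes detected on all arrays, 37 cytosolic members (50%) rose and 2 fell, with a median of 0.22, while 24.6% of all genes rose. Quantile normalisation gave 51 rises (68.9%, against 22.8% of all genes) and 2 falls with a median of 0.28. Normexp background correction gave 19 rises (25.7%, against 17.9% of all genes) and 2 falls with a median of 0.18. A median shift gave 0 rises and 2 falls (median -0.01), and a shift by 7 spike-in probes 0 rises and 2 falls (median -0.14), where 13.3% and 9.32% of all genes rose. Rps29 and Rps2 fell under all 5 of these settings, while Rps12 and Rps6 did not pass the test under the median and spike-in shifts. Over mitochondrial members the falls numbered 35, 37, 41, 35 and 32 under these settings, and the median lay between -0.61 and -0.24. The falls made up 44.4% to 56.9% of the mitochondrial members, against 21.3% to 30.2% of all genes. The cytosolic minus the mitochondrial median, 0.47 in the main setting, is the same under any shift of whole arrays, and was 0.52 after quantile normalisation and 0.50 after normexp. The spike-in probes departed from their 12-array mean by -0.27 to 0.23 among tumours and by -0.49 to 0.07 among non-tumour arrays. In the 75th percentile setting the 7 cytosolic calls became 4 without tumour 1, tumour 2 or non-tumour 1 and 11 without tumour 3 or non-tumour 2.

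**Figure D5:**
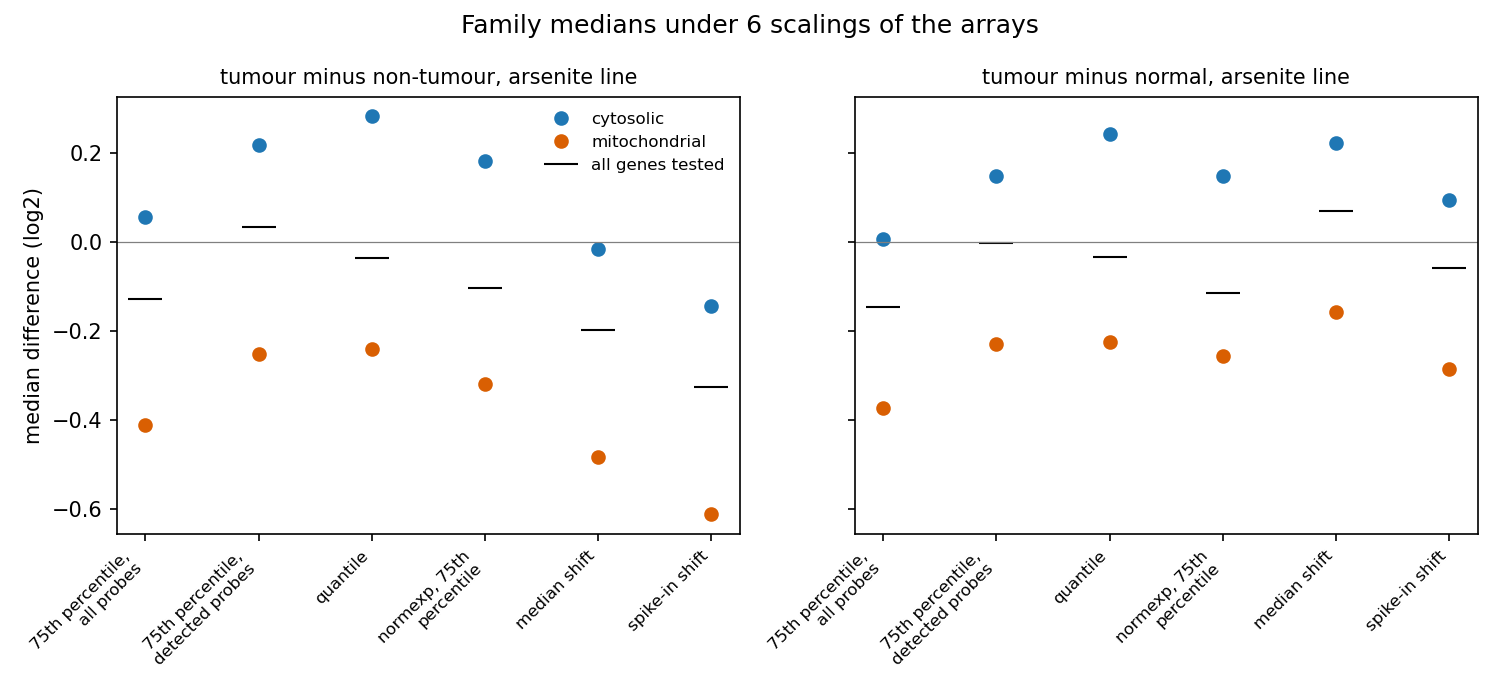
Median difference (log2) over cytosolic members (blue), mitochondrial members (orange) and all genes tested (black dashes) in both tumour comparisons under 6 scalings of the arrays. The cytosolic median lies between -0.14 and 0.28 against non-tumour liver and between 0.01 and 0.24 against normal liver, and under each scaling the mitochondrial median lies below that of all genes and the cytosolic median above it.

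Against normal liver of the arsenite line, which shares the tumour arrays with the comparison above, 41 mitochondrial members fell and 2 rose, while 3 cytosolic members rose and 5 fell. Among all genes tested 17.1% rose and 30.9% fell. The median difference was -0.37 over mitochondrial members and 0.01 over cytosolic members, against -0.14 over all genes. Of the mitochondrial falls, 40 were found in both tumour comparisons, 52 in at least 1 of them, and Mrps6 and Mrpl50 rose in both. Mrpl14 read 5.94, 5.94 and 6.02 in tumours, against 7.01, 7.07 and 7.01 in normal liver, a difference of -1.07 ± 0.09 (adjusted p = 8.42e-06). Mrpl15 fell by 0.88 ± 0.10, Mrpl47 by 0.83 ± 0.09, Mrps10 by 0.77 ± 0.12 and Mrpl4 by 0.74 ± 0.11, with adjusted p of 7.9e-05, 5.37e-05, 0.00034 and 0.000417. Mrpl46 fell by 0.65 ± 0.18 (adjusted p = 0.0138), with 1.82, 2.07 and 2.02 in tumours, against 3.04, 2.41 and 2.40 in normal liver, where array 1 stood above the other 2. It was not called against non-tumour liver (adjusted p = 0.0628). Mrps6 rose by 0.53 ± 0.15 (adjusted p = 0.014) and Mrpl50 by 0.47 ± 0.12 (adjusted p = 0.00823).

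Rps12, Rps6 and Rps15a were the cytosolic genes that rose against normal liver, by 0.42, 0.29 and 0.32 (adjusted p = 0.00395, 0.0244 and 0.0348). With the sample number as a block in the 6 arrays, these 3 rises did not pass (adjusted p = 0.0513, 0.114 and 0.095). The sample numbers of this comparison did not meet the rule for pairing described below. Rps29 and Rps2 fell by 0.49 and 0.41 (adjusted p = 0.000775 and 0.00586). Rps25, Rpl36 and Rpl35a, the last mutated in some Diamond-Blackfan families, fell by 0.28, 0.25 and 0.26 with adjusted p of 0.0464, 0.0369 and 0.0387. Those 3 calls were lost under each of the 5 other scalings, the calls of Rps29 and Rps2 under the median and spike-in shifts, and that of Rps2 under quantile normalisation as well. Without any single array of normal liver, 3 cytosolic calls were left, and 4 or 5 without tumour 1 or tumour 2. Only 1 rise was among the calls left in each of these fits. The cytosolic counts again moved with scaling, to 43 rises and 1 fall after quantile normalisation, 19 rises and 2 falls with the percentile of detected probes, and 0 calls after the spike-in shift. The rises after quantile normalisation were 58.1% of cytosolic members, against 23.2% of all genes. With the percentile of detected probes they were 25.7%, close to the 23.0% of all genes. After the spike-in shift 12.3% of all genes rose and 13.3% fell. Under the median shift, which put the median of all genes at 0.07, 6 mitochondrial members fell and 2 rose. These falls were 8.33% of the mitochondrial members, against 14% of all genes, and under the spike-in shift 5.56% fell, against 13.3% of all genes. The larger share of falls among mitochondrial members against normal liver was thus not found under these 2 scalings.

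Outside tumours, no member was called. In non-tumour against normal liver of the arsenite line, 0 of 18112 genes passed the test (0% in each direction), with 1236 genes at an unadjusted limma p under 0.05, none of them a member. Differences ran from -0.18 to 0.07 over cytosolic members, with a median of -0.04, and from -0.19 to 0.27 over mitochondrial members, with a median of 0.03. Under the median and spike-in shifts the cytosolic median was 0.24, and the median of all genes 0.29. The members with the smallest p were Rpl3 (-0.18 ± 0.10), Rps15 and Rpl28 among cytosolic and Mrpl42 (0.23 ± 0.12), Mrps11 and Mrps33 among mitochondrial genes, all with adjusted p of 0.777 or more. Rpl3 read 7.30, 7.44 and 7.10 in non-tumour liver, against 7.46, 7.50 and 7.42 in normal liver, and the groups overlapped.

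Arsenite against control non-tumour liver, compared within a single slide, asks whether exposure of the grandmothers left a difference in the F2 liver. Of all genes tested, 0% rose and 0.00552% fell, which is 1 gene and no member. Differences ran from -0.18 to 0.03 over cytosolic members and from -0.19 to 0.19 over mitochondrial members, with medians of -0.06 and 0.00 against -0.02 over all genes. The difference was below 0 for 70 of the 74 cytosolic members, which share the 6 arrays and so are not replicates, and the medians of the arrays overlapped between the groups. The cytosolic median was 0.18 under the median shift and 0.25 under the spike-in shift, where that of all genes was 0.23 and 0.30. Rpl3 had the smallest p of the cytosolic members (-0.18 ± 0.10, adjusted p = 0.995), reading 7.30, 7.44 and 7.10 in the arsenite line, against 7.42, 7.42 and 7.52 in the control line. Mrps26 had the smallest of the mitochondrial members (-0.19 ± 0.10, adjusted p = 0.971). Rpl5, Rpl11 and Rps27l had differences of -0.05, -0.12 and -0.02. The median SE of a member was 0.10 in both families, so small differences could not be told from 0 here.

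Genes next to the ribosomal proteins were counted in lists. Cytosolic ribosomal proteins with other names, 7 tested, gave 1 rise (14.3%) and 1 fall (14.3%) in tumours against non-tumour liver, with a median of 0.15. Both shares were below those of all genes, 17.1% and 29.9%. Fau, which encodes Rps30 fused to a ubiquitin-like protein, fell by 0.58 ± 0.08 (adjusted p = 0.000201), and Rack1, a scaffold on the small subunit, rose by 0.26 ± 0.10 (adjusted p = 0.0475, and 0.102 with the sample number as a block). Of 9 mitochondrial ribosomal proteins with other names, 8 fell (88.9%, against 29.9% of all genes) and 0 rose, with a median of -0.35. With the block, 4 of these falls were lost. The 8 genes that fell included Gadd45gip1 (-0.80 ± 0.12), Mrps18a (-0.68 ± 0.09), Mrps18b (-0.63 ± 0.13) and Ptcd3 (-0.58 ± 0.11).

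Factors that build and run the mitochondrial ribosome were mostly lower in tumours as well. Of 33 genes of mitochondrial translation and mitoribosome assembly, 22 fell (66.7%, against 29.9% of all genes) and 0 rose, with a median of -0.42. With the block, 6 of these falls were lost. Noa1, a GTPase of small-subunit assembly, fell by 1.26 ± 0.12 (adjusted p = 2.16e-05), Rmnd1, required for mitochondrial translation, by 1.13 ± 0.08 (adjusted p = 2.33e-06), Taco1, an activator of cytochrome oxidase translation, by 1.09 ± 0.12 (adjusted p = 4.53e-05) and the elongation factor Gfm1 by 0.83 ± 0.10 (adjusted p = 0.000106). Of 16 mitochondrial aminoacyl-tRNA synthetases, 8 fell (50%) and 1 rose, with a median of -0.39. With the block the rise was lost and the falls were kept. Hars2 fell by 0.69 ± 0.09 and Rars2 by 0.47 ± 0.10. Nars2, not well above background in tumours, was at least 4.68-fold lower (adjusted p = 2.75e-05), a bound taken from the lowest signal that each tumour array still read as detected.

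Of 49 ribosome biogenesis genes, 10 fell (20.4%) and 2 rose (4.08%), both below the shares of all genes, 29.9% and 17.1%, and the median was -0.15. With the block, 3 of these falls and the 2 rises were lost. Heatr1, Fbl and Tcof1, which act in making ribosomal RNA, fell by 0.70 ± 0.10, 0.51 ± 0.10 and 0.64 ± 0.14, and Nop10 by 0.73 ± 0.12. Of 13 tested genes of RNA polymerase I and its factors, 3 rose (23.1%) and 1 fell (7.69%). Ubtf, the activator of ribosomal RNA transcription, rose by 0.65 ± 0.15 (adjusted p = 0.00562, and 0.0574 with the block), Polr1d by 0.49 ± 0.10 and Taf1d by 0.77 ± 0.22, and Twistnb fell by 0.49 ± 0.09. Of 40 translation factors, 3 rose (7.5%, none of them called with the block) and 6 fell (15%), with a median of -0.04, and Eif4a2, an RNA helicase of initiation, had the smallest p (-0.93 ± 0.12, adjusted p = 0.00014).

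Of 19 Myc and mTOR regulators of ribosome production, 2 rose (10.5%) and 7 fell (36.8%), against 17.1% and 29.9% of all genes. With the block, 2 of these falls were lost. Myc itself had a difference of -0.57 ± 0.42 (adjusted p = 0.296), whereas Mycn and Mycl rose (adjusted p = 0.000263 and 9.52e-05). Both were well above background on all 3 tumour arrays and on 1 of 3 non-tumour arrays, so no size is given for their differences. The S6 kinase genes Rps6kb1 and Rps6kb2 fell by 0.45 ± 0.09 and 0.89 ± 0.16, and Mtor had a difference of -0.02 ± 0.11. Of 10 genes of the Mdm2 and p53 pathway, 9 rose (90%) and 0 fell, with a median of 1.23. Phlda3 rose by 4.56 ± 0.32, Cdkn2a by 4.37 ± 0.32, Bax by 1.21 ± 0.09 and Zmat3 by 1.64 ± 0.21, while Rps27l, above, did not pass the test. Against normal liver the mitochondrial lists gave 22 falls of 33 (66.7%) and 7 of 16 (43.8%), against 30.9% of all genes. The biogenesis list gave 12 falls (24.5%) and 1 rise (2.04%) of 49, both below the shares of all genes, 30.9% and 17.1%. In the remaining comparisons no gene of these lists was called.

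Cell markers were counted in tumours against non-tumour liver too, where 17.1% of all genes rose and 29.9% fell. All 9 hepatocyte markers passed the filter on background, with a summed signal (in units of the 75th percentile of the array) of 7541 to 9100 in tumours and 8495 to 9393 in non-tumour liver. Of these 1 rose (11.1%) and 2 fell (22.2%), both below the shares of all genes. Of 10 macrophage markers 8 fell (80%), with sums of 45.6 to 84.2 in tumours and 132 to 178 in non-tumour liver. Of 8 stellate and fibroblast markers 3 rose (37.5%) and 4 fell (50%), with sums of 20.4 to 29.1 and 68.3 to 74.5. Of 7 endothelial markers 1 rose (14.3%) and 2 fell (28.6%), close to the shares of all genes, with sums of 67.3 to 94.0 in tumours and 113 to 134 in non-tumour liver. Of 5 T and NK markers 1 rose (20%) and 1 fell (20%), with sums of 129 to 175 in tumours and 31.2 to 58.3 in non-tumour liver and a median difference of -0.05. Of 4 B and plasma markers 2 rose (50%) and 0 fell, with a median difference of 0.91. Their sums were 3.01 to 5.18 in tumours and 1.57 to 2.56 in non-tumour liver. Of 4 bile duct markers 0 rose and 0 fell. The 3 neutrophil and the 3 erythroid markers each gave 0 rises and 1 fall (33.3%). Krt7, Epcam, Cd3d, Cd8a, Ncr1, Ms4a1 and Retnlg were among the markers not well above background on all arrays of any group. The part of these cell types in the ribosomal protein differences was not tested.

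Promoters of the members were read from RefSeq on GRCm38.p6, from 250 bases before to 50 after the first listed start of each gene, because many members moved together. Of the 150 members 121 had an entry, 57 cytosolic and 64 mitochondrial, out of 27025 genes. On either strand, CCGGAAG, the core bound by ETS factors such as GABP, stood in 38.6% of cytosolic and 31.3% of mitochondrial promoters, against 9.12% of all. AAGATGGC, the core of the YY1 motif, stood in 7.02% of cytosolic and 17.2% of mitochondrial promoters, against 2.88% of all, and TATAAA in 7.02% and 6.25%, against 14.2% of all. GGGCGG was found in 56.1% and 48.4%, against 35.9% of all, and CACGTG, the E-box read by Myc, in 8.77% and 6.25%, against 7.24%. No motif holds another within its letters, though matches may share bases at their ends, and a match describes letters, not binding. Among mitochondrial members, CCGGAAG stood in 15 of the 46 promoters of genes that fell against non-tumour liver and in 5 of the 17 of the other tested genes, and AAGATGGC in 9 of 46 and 1 of 17. No CCGGAAG stood in the promoters of Rps12, Rps15a, Mrpl14, Mrpl47, Mrps10, Mrps24, Mrps6 and Mrpl50, whereas those of Rps6, Rps21, Rpl15, Rps2 and Mrpl52 held it. The 150 bases before the start are shown for called members chosen because that stretch holds CCGGAAG or its reverse complement, in capitals. These are 3 cytosolic members, Mrpl52, which rose, and Mrpl34 and Mrpl3, which fell. They lie at chr4:86857368-86857517 (Rps6, minus strand), chr2:180257229-180257378 (Rps21), chr17:24719913-24720062 (Rps2), chr14:54426759-54426908 (Mrpl52), chr8:71464776-71464925 (Mrpl34) and chr9:105053118-105053267 (Mrpl3), the last 5 on the plus strand.
Rps6 promoter: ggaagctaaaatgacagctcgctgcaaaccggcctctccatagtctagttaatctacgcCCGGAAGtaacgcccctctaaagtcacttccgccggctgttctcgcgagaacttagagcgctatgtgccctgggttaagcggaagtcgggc
Rps21 promoter: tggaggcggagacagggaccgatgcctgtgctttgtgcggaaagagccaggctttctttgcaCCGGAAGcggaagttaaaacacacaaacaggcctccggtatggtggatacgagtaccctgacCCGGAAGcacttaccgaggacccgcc
Rps2 promoter: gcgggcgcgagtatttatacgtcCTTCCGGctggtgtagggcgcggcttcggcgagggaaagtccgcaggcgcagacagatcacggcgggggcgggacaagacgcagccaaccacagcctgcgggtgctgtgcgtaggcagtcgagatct
Mrpl52 promoter: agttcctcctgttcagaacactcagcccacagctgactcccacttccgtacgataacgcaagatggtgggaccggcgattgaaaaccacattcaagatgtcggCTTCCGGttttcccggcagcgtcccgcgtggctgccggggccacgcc
Mrpl34 promoter: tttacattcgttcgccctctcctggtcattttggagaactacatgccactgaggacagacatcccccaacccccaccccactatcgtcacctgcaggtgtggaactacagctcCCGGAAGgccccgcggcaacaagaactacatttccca
Mrpl3 promoter: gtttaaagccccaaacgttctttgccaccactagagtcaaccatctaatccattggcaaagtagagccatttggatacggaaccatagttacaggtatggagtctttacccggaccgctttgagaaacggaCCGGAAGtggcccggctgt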

How the data were processed

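The deposited text files hold scanner output, and per the file headers their processed signal is a spot intensity from which background and a spatial trend had been removed, with no scaling across arrays. Scanner software 10.7.3.1 is named in these headers, and Agilent Feature Extraction 12.0.3.1 in the submitters' processing notes. In the authors' value table each entry was checked to be a linear ratio, the processed signal over the 75th percentile of all spots of its array, uncentred.

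Each array held 59305 spots and 3671 control spots. Log2 signals were averaged over the spots of a probe, leaving out marked outliers, and 24156 probes were kept. Genes were fitted with limma 3.58.1 in R 4.3.3, with a mean per group over 12 arrays and 1 shared estimate of the spread, and the fit was tested on simulated data. The labels do not state that samples came from separate mice, so p-values measure the spread between these samples. The number of arrays limits the precision. Python 3.11.15 with pandas 2.3.3, numpy 2.4.6 and matplotlib 3.10.9 served for the rest.

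Deviations from the group means correlated at 0.13, 0.13 and 0.22 between tumour and non-tumour samples of the same number, above 0.1 in every pair, and no other comparison met this rule for pairing. Blocked values stand beside named genes whose call they change. Named members were, by rule, up to 6 largest rises and 6 largest falls among called members of each family and comparison, the 3 with the smallest p where under 3 were called, and a set with known roles. The rule for the lists was up to 4 called genes with the smallest p. Other members and list genes in the text were chosen after their values were seen, and a few list genes are not reported here. Members, lists and rules were chosen with earlier results of these data known. Alternatives covered scaling, background correction, the authors' table, the filter, the choice of probe, a wider name rule, blocks and left-out arrays.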

Additional observations from a re-analysis of the deposited data

How the results depend on the processing

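No named call changed sign under any setting run, but the cytosolic median did. It was 0.06 in tumours against non-tumour liver, -0.01 with the median shift and -0.14 with the spike-in shift, and 0.01 against normal liver, -0.02 without tumour 1 and -0.01 without tumour 2. In non-tumour against normal liver it was -0.04, and 0.01 without non-tumour 3 of the arsenite line. In tumours against non-tumour liver the 7 cytosolic calls became 53 with quantile normalisation, 39 with the percentile of detected probes, 21 with normexp, 11 with the mean of probes, 4 without the filter or with the 6 arrays alone, and 2 with the median or spike-in shift. Leaving out 1 array gave 4 to 11. With quantile normalisation 22.8% of all genes rose and 24.6% fell, and with the percentile of detected probes 24.6% and 21.3%. With normexp 17.9% of all genes rose and 30.2% fell, against 25.7% and 2.70% of cytosolic members. The 54 mitochondrial calls became 35 with the median shift, 32 with the spike-in shift and 39 to 48 without 1 array. Against normal liver the 8 cytosolic calls became 44 with quantile normalisation, 21 with the percentile of detected probes, 18 with normexp, 5 without the filter, 4 with the 6 arrays alone, 3 with the median shift, 0 with the spike-in shift and 3 to 6 without 1 array. Here 23.2% of all genes rose and 24.6% fell with quantile normalisation, and 23.0% and 22.4% with the percentile of detected probes. With normexp 18.2% of all genes rose and 31.9% fell, against 21.6% and 2.70% of cytosolic members. The 43 mitochondrial calls became 8 with the median shift, 4 with the spike-in shift and 39 to 42 without 1 array. The cytosolic minus mitochondrial median difference there was 0.47 with quantile normalisation and 0.32 to 0.45 without 1 array. The cause was not tested. The spike-in shift was chosen after seeing the data.

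With the replicate block in the 6 arrays, tumours against normal liver, whose numbers did not meet the pairing rule, gave 2 cytosolic and 29 mitochondrial calls. In tumours against non-tumour liver the block lost the calls of 2 cytosolic and 15 mitochondrial members. No member was called in the comparisons without tumours under any setting run. A slide block could not be fitted where slide and group coincide, and leaving out saturated probes changes nothing, since no member was saturated.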
